A study of Caenorhabditis elegans with 9 samples.

Results

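The left part of chromosome III of the nematode Caenorhabditis elegans, from its left end to position 4590000 of WormBase build WS190, held 657 of the 7213 regions at which the transcription factor PES-1 was listed as bound in the combined data. The same stretch held 358 of 3488 peaks in the list of replicate 1 and 454 of 4185 in that of replicate 2. These regions were chosen by the authors' peak calls themselves, as every listed peak whose midpoint lay below the boundary. Their number, spacing, widths and q-values are therefore descriptions of the lists that chose them, set beside the 834, 462 and 496 peaks on the rest of chromosome III.

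The data came from chromatin immunoprecipitation and sequencing (ChIP-seq), in which DNA crosslinked to a protein is precipitated with an antibody and sequenced. The worms were hermaphrodites at L4, the last larval stage, grown at 20 °C on HB101 bacteria. All of them were of strain OP87, which carries the host mutation unc-119(ed3) III together with wgIs87, an array made by bombardment that holds unc-119(+) and pes-1::TY1::EGFP::3xFLAG. The protein precipitated with goat antibody to GFP was thus a tagged copy made from a transgene, and no untagged strain is among the groups. Per the labels the fusion follows the expression of pes-1 in space and time, and chromatin came from pelleted worms, with no tissue or cell type sorted. Replicate 1 had 2 ChIP and 4 input libraries and replicate 2 had 3 ChIP libraries, input being DNA kept back before precipitation. Each replicate enters as 1 list, so no spread between libraries can be given, and read depth is unknown.

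PES-1 belongs to the forkhead family, whose members bind DNA through a winged-helix domain and often act as regulators of cell fate. In C. elegans, pes-1 is known mainly for its expression in the embryo. The autosomes of this worm have a gene-rich centre and 2 arms with more repeats and more recombination, and the stretch described here is the left arm of chromosome III with the region next to it. Because the worms were not sorted into cell types, a site bound in few cells and a site bound weakly in many cannot be told apart.

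Peaks stood closer together on the left part than on the rest of the chromosome. In the combined list there were 143 peaks per Mb against 90.8, a ratio of 1.58. Replicate 1 had 78.0 per Mb against 50.3, a ratio of 1.55, and replicate 2 had 98.9 against 54.0, a ratio of 1.83. The left part makes up 33.3% of the length up to the last peak at 13771450. It held 44.1% of the chromosome's combined peaks (exact 95% binomial interval 41.5 to 46.6%), 43.7% of those of replicate 1 and 47.8% of those of replicate 2. Peaks covered 5.26% of the left part and 3.82% of the rest in the combined list, so covered length was less skewed than peak number. These intervals, like all others here, cover counting error only and treat peaks as independent. No test of left against rest was made, since the stretch was chosen with these lists known and each replicate is a single list.

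Density was highest in the middle of the stretch, although the first window of 100 kb at the chromosome end was also crowded, with 24 combined peaks. The first Mb as a whole had 86 combined peaks per Mb, below the 90.8 of the rest of the chromosome. From 1.0 to 3.5 Mb there were 178 per Mb, and this interval held 445 of the 657 peaks, or 67.7%. From 3.5 Mb to the boundary the density was 116 per Mb. The replicate lists had the same order, with 33, 103 and 62.4 per Mb in replicate 1 and 53, 128 and 75.2 in replicate 2. The limits of 1.0 and 3.5 Mb were set after the counts per bin had been seen.

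Counts in bins of 500 kb show the same profile. From left to right the 9 bins that lie wholly in the left part held 53, 33, 78, 136, 77, 64, 90, 66 and 46 combined peaks. The 17 full bins of the rest ranged from 24 to 68, so 4 of the 9 left bins exceeded every one of them. In replicate 1 the 9 left bins ranged from 14 to 96 and those of the rest from 14 to 34. In replicate 2 the ranges were 23 to 106 and 14 to 40. In each replicate 5 of the 9 left bins were above every bin of the rest, and the bin from 1.5 to 2.0 Mb was the fullest.

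**Figure D1:**
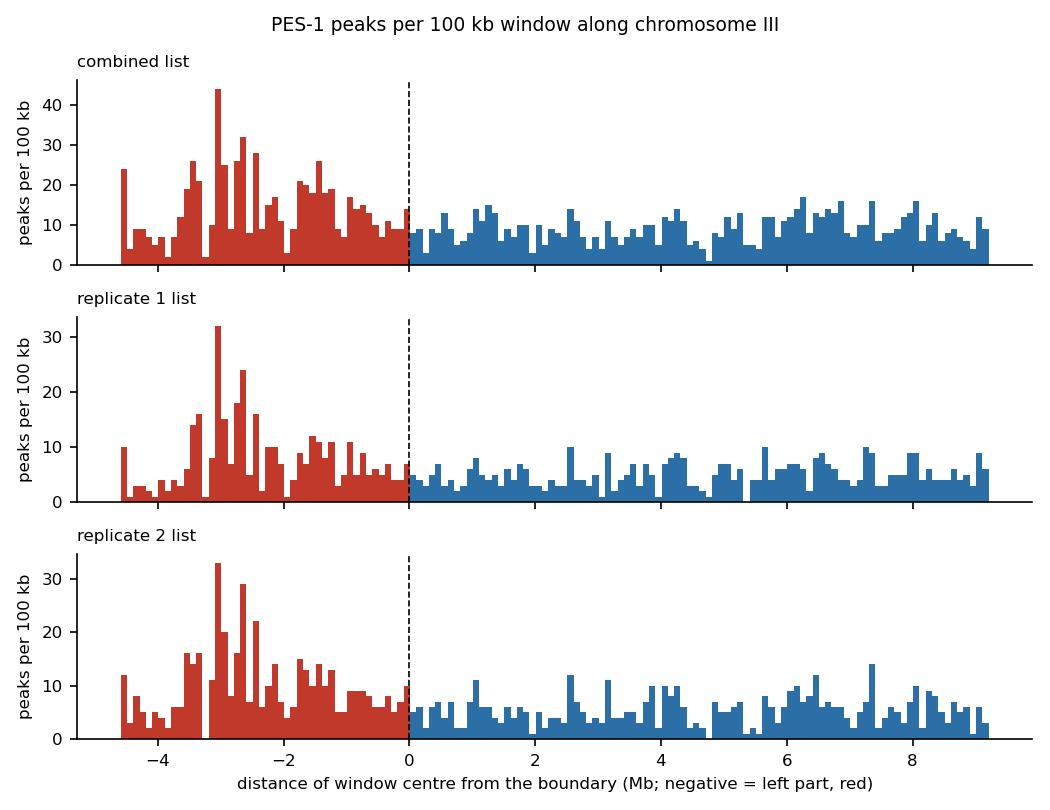
Number of peaks in each 100 kb window of chromosome III, in the combined list and the list of each replicate, against the distance of the window's centre from the boundary in Mb; windows of the left part are red, the window that spans the boundary included. The fullest left window holds 44 combined peaks, and the fullest full window right of the boundary holds 17.

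At a scale of 100 kb the left part had more uneven counts than the rest of the chromosome. Over its 45 full windows the combined count ran from 2 to 44 with a median of 11, and the variance was 5.46 times the mean. Over the 91 full windows of the rest it ran from 1 to 17 with a median of 9, and the variance was 1.32 times the mean. The same ratio was 5.07 against 1.05 in replicate 1 and 4.50 against 1.49 in replicate 2. Windows with 20 or more combined peaks numbered 11 on the left part and 0 on the rest. The 10 fullest of the 45 left windows held 42.5% of the peaks in those windows. On the rest the 10 fullest of 92 windows, the shorter last one included, held 18.0%. Since 10 windows are a larger part of 45 than of 92, these shares would differ even if peaks were evenly spread.

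Full windows and sparse windows both lay between 1.0 and 3.5 Mb. The 5 fullest windows began at 1500001, 1900001, 2100001, 1100001 and 1800001, with 44, 32, 28, 26 and 26 combined peaks, and the window at 3100001 also held 26. In replicate 1 these windows held 32, 24, 16, 14 and 18 peaks, and in replicate 2 they held 33, 29, 22, 14 and 16. The window from 1300001 to 1400000 lies between them and held 2 combined peaks, 1 replicate 1 peak and 0 replicate 2 peaks. Across the 45 left windows the counts of the replicates had a Spearman's rho of 0.90, against 0.75 across the 92 windows of the rest, the shorter last one included. This is a description across windows that share libraries, and left windows span a wider range of counts. Replicate 2 had more peaks than replicate 1 in 31 of the 45 windows, fewer in 4 and as many in 10.

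The distance between neighbours gives the same picture from peak to peak. The median gap between the end of a combined peak and the start of the next was 2325 bp on the left part and 5882 bp on the rest. In replicate 1 it was 4361 against 12086 bp, and in replicate 2 it was 3530 against 10455 bp. The mean gap of the combined list was 2.85 times the median on the left part and 1.80 times on the rest, so short gaps and long gaps were mixed to a greater degree on the left. The shortest gap on chromosome III in any of the 3 lists was 201 bp.

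**Figure D2:**
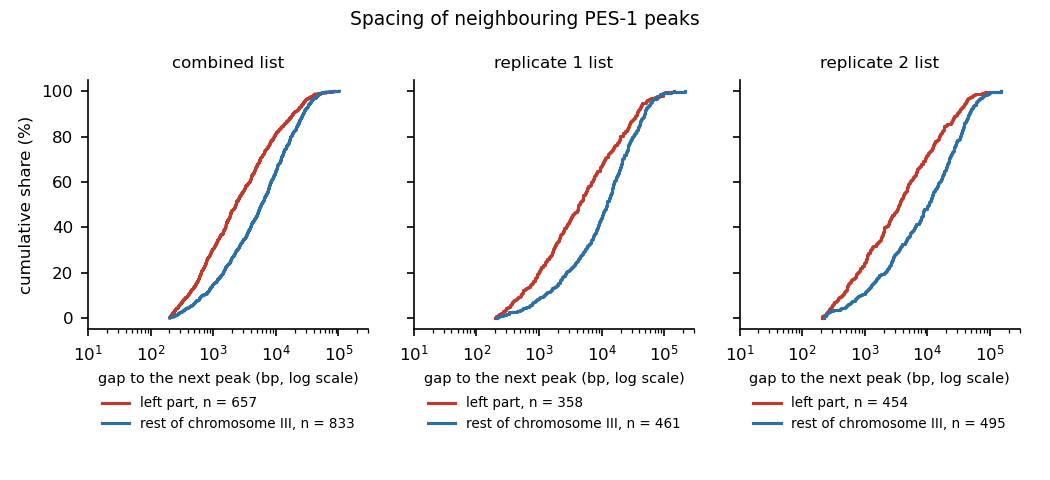
Cumulative share in percent of the gaps between each peak and the next, in bp on a log scale, for the left part (red) and the rest of chromosome III (blue) in each list. The left curves lie to the left, with a combined median of 2325 against 5882 bp, and the curves approach each other among the longest gaps.

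Close neighbours made up a larger share of the left peaks in all 3 lists. Of the combined peaks, 310 of 657 (47.2%) lay within 1 kb of another, against 218 of 834 (26.1%), a difference of 21.0 percentage points (Newcombe 95% interval 16.2 to 25.8). The differences were 17.7 points in replicate 1, with 34.4% against 16.7%, and 20.3 points in replicate 2, with 39.6% against 19.4%. A denser list brings peaks closer together by itself, so this share restates the density in part.

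Long stretches without a combined peak also occurred inside the left part. Gaps over 50 kb numbered 7 in its 4.59 Mb and 11 in the 9.18 Mb of the rest, where the longest was 103259 bp. Between peaks of replicate 1 such gaps numbered 18 on the left part and 37 on the rest. Between those of replicate 2 they numbered 12 and 39. The longest of the left part ran from 2214047 to 2299087, a length of 85.0 kb, and the next from 699219 to 783292, a length of 84.1 kb. Neither held a peak of either replicate. The third, from 1313854 to 1392920, and the fourth, from 1430322 to 1494098, each held 1 replicate 1 peak and no replicate 2 peak. The fifth, from 360675 to 423940, held none of either. The 2 of them between 1.3 and 1.5 Mb lie directly before the fullest window.

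Peaks were gathered into clusters, taken here as 3 or more consecutive peaks each within 2 kb of the next. The left part had 69 combined clusters, or 15.0 per Mb, and the rest had 48, or 5.23 per Mb. On the left part 317 of 657 combined peaks (48.2%) were in clusters, against 165 of 834 (19.8%) on the rest, a difference of 28.5 points (23.7 to 33.1). Replicate 1 had 27.4% against 8.01%, and replicate 2 had 36.6% against 12.3%. By bins of 500 kb the combined share ran from 18.2 to 72.1% on the left part. On the rest it reached 35.3%, from 11.0 to 11.5 Mb. With a fixed gap of 2 kb a denser list forms more clusters by itself, so the cluster share also restates the density in part. Clusters of 5 or more peaks numbered 26 on the left part and 3 on the rest. Of the 69 left clusters, 54 began between 1.0 and 3.5 Mb.

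Most combined clusters were touched by peaks of both replicates, though not peak by peak. A single such peak sufficed and each cluster holds 3 or more combined peaks, so this does not show that a replicate had a cluster there. Taken by itself, the replicate 1 list had 26 clusters on the left part and 11 on the rest. The replicate 2 list had 39 and 18. All 69 left clusters held a peak of at least 1 replicate, and 62 held peaks of both. In 60 of them at least 1 combined peak was overlapped by both lists. Clusters of the rest had similar support: 42 of 48 held peaks of both replicates and 2 held none of either. In 38 of those 48 at least 1 combined peak was overlapped by both lists. Replicate 2 had more peaks than replicate 1 in 38 of the left clusters, fewer in 15 and as many in 16. On the rest of the chromosome the corresponding numbers over 48 clusters were 14, 14 and 20.

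The largest cluster ran from 1920882 to 1934295 and held 10 combined peaks over 13414 bp. Peaks covered 55.1% of it, with widths whose median was 828 bp and gaps whose median was 607 bp. It held 9 peaks of each replicate, and 9 of its 10 combined peaks were overlapped by both lists. Along it, −log10 of the combined q ran 47.6, 22.5, 54.9, 45.8, 35.9, 47.5, 32.3, 3.44, 6.46 and 15.6. The first 7 peaks were thus strong throughout, while the eighth was 6 bp wide and was matched by replicate 2 alone. In these 7 peaks the replicate 1 value lay between 12.4 and 31.8 and the replicate 2 value between 7.55 and 23.4. Joining peaks up to 5 kb apart extended this cluster to 1962807, a run of 24 combined peaks over 41.9 kb with 20 peaks of replicate 1 and 24 of replicate 2. The largest such run on the rest of the chromosome, from 10621051 to 10646344, held 10.

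The next 4 clusters held 9 combined peaks each and differed in replicate support. The one from 1610791 to 1622675 had 5 replicate 1 and 7 replicate 2 peaks, and was built around a peak with a −log10 q of 93.8. The one from 1180229 to 1188865 had 6 and 4, and the one from 1214785 to 1226622 had 8 and 6. In these 3 clusters 4, 4 and 6 of the 9 combined peaks were overlapped by both replicates. The cluster from 1040602 to 1049604 stood apart, with 2 replicate 1 peaks against 9 of replicate 2. Its combined peaks were narrow, the median being 181 bp. Its first peak had a −log10 q of 2.25 in replicate 1 and 10.3 in replicate 2, and its sixth had 3.22 and 4.82. The other replicate 2 values in it ran from 2.53 to 7.43, with no replicate 1 peak beside them.

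The most significant regions of the left part lay mostly in the crowded interval. Of the 10 combined peaks with the smallest q that overlapped both replicates, 8 lay between 1.0 and 3.5 Mb and 4 were in clusters. They ranked between 2 and 56 among all 7213 combined peaks, and were 362 to 2894 bp wide. In 8 of the 10 the smaller q was that of replicate 1.

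The first was the 2894 bp region from 1936510 to 1939403, with a combined −log10 q of 147. It lay 2214 bp past the end of the largest cluster and 205 bp from its nearest neighbour. Each replicate had 2 peaks within it, the better of which had a −log10 q of 45.9 in replicate 1 and 66.1 in replicate 2. The second, from 1616169 to 1617189, had a combined value of 93.8, with 61.1 in replicate 1 and 37.9 in replicate 2. These were the peaks with the smallest q of the left part in replicate 2 and in replicate 1 respectively.

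After these 2 regions the combined −log10 q fell to 57.1 and below. The third region, from 3867369 to 3867788, was 420 bp wide and had nearly equal values of 39.3 and 36.1 in replicates 1 and 2. The fourth, from 1519896 to 1520596, had 34.1 and 21.6. The fifth, from 1924930 to 1925746, was the third peak of the largest cluster, with 31.8 and 20.2. The replicates were therefore within a factor of 2 of each other in these 3 regions on the −log10 scale.

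In 3 of the 10 the replicates differed by more than this. The sixth region, from 2393402 to 2394373, had a −log10 q of 15.5 in replicate 1, where it ranked 29 on the left part, and 38.0 in replicate 2, where it ranked 2. The seventh, from 4281641 to 4282708, was the reverse, with 41.1 and rank 3 in replicate 1 and 13.4 and rank 29 in replicate 2. The ninth, from 1858837 to 1859931, had 31.4 in replicate 1 and 14.1 in replicate 2. The remaining regions lay from 1080564 to 1080925 and from 3456245 to 3456612. Their values were 34.5 and 22.6, and 29.9 and 27.9, in replicates 1 and 2. The region at 1080564 was isolated, with 26160 bp to its nearest neighbour, so a small q also occurred outside clusters.

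Over all left peaks q was somewhat smaller than on the rest of the chromosome. The median −log10 q was 4.90 against 4.25 for combined peaks. For replicate 1 it was 4.35 against 4.05, and for replicate 2 it was 3.53 against 3.15. Combined peaks with a q above 0.001 made up 19.9% of the left part and 29.9% of the rest, a difference of −9.92 points (−14.2 to −5.51). On the left part peaks in clusters had a median −log10 q of 5.41 and peaks outside them 4.49. On the rest these values were 4.25 and 4.26.

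The left part had a larger share of narrow peaks than the rest, which pools the centre and the right arm. By bins of 500 kb the lowest combined median width of the rest was 265 bp, from 12.0 to 12.5 Mb. The median width was 274 bp against 332 bp in the combined list. For replicate 1 it was 326 against 352 bp, and for replicate 2 it was 239 against 308 bp. The lower quartile differed more than the upper one, at 181 against 236 bp and 485 against 477 bp in the combined list. Peaks under 200 bp made up 31.1% of the left part against 19.4% of the rest, 20.7% against 6.06% in replicate 1 and 33.9% against 19.2% in replicate 2. By stretch, their share in the combined list was 32.6% in the first Mb, 33.7% from 1.0 to 3.5 Mb and 20.6% from there to the boundary. The limit of 200 bp was chosen after the widths had been seen. The commonest width on the chromosome was exactly 200 bp in each of the 3 lists, but its counts were unevenly placed. In replicate 1, 8 of 358 left peaks and 1 of 462 others had it, in replicate 2 it was 27 of 454 and 16 of 496, and in the combined list 10 and 10.

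**Figure D3:**
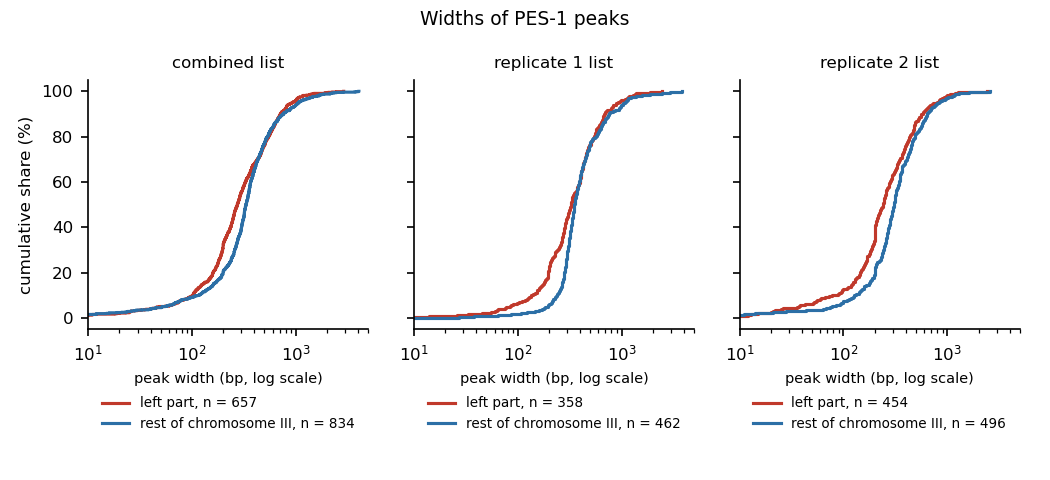
Cumulative share in percent of peak widths in bp on a log scale, for the left part (red) and the rest of chromosome III (blue) in each list; peaks under 10 bp lie beyond the axis. The curves are apart around 200 bp, where the left part has 31.1% of its combined peaks below and the rest 19.4%, and come closer together among the wide peaks.

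No excess of wide peaks was found on the left part. Of the combined peaks, 157 of 657 (23.9%) were wider than 500 bp, against 192 of 834 (23.0%), a difference of 0.87 points (−3.43 to 5.24). In replicate 2 such peaks were the less frequent on the left part, at 13.4% against 18.3%, a difference of −4.91 points (−9.53 to −0.24). The combined direction also turned with the boundary at 4 Mb, to −0.49 points, and for peaks of at least 1 kb, which numbered 27 (4.11%) against 52 (6.24%). Clustered peaks of the left part had a median width of 265 bp and the others 282 bp. On the rest of the chromosome clustered peaks were the wider ones, at 363 against 324 bp.

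The widest left regions were mostly outside the crowded interval. After the 2894 bp region at 1936510, the widest ran from 65108 to 67565 (2458 bp), 4017974 to 4020216 (2243 bp), 833517 to 835562 (2046 bp) and 348523 to 350458 (1936 bp). In these 4 the −log10 q was larger in replicate 1, at 20.4, 9.29, 10.5 and 26.5, than in replicate 2, at 5.29, 5.61, 5.11 and 6.80. Replicate 2 covered the one at 65108 with a single 518 bp peak, where replicate 1 had a peak of 2436 bp. In each of these 4 regions the replicate 2 peak with the smallest q was narrower than that of replicate 1. The 2894 bp region was the reverse, with 2433 bp in replicate 2 and 1206 bp in replicate 1.

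Replicate support was unequal in the 2 directions. Of the 358 left peaks of replicate 1, 267 (74.6%, 69.7 to 79.0%) shared 1 bp or more with a replicate 2 peak, against 304 of 462 (65.8%, 61.3 to 70.1%) on the rest of III and 67.7% of the list over all chromosomes. The difference between left and rest was 8.78 points (2.45 to 14.9), and it shrank to 0.55 (−6.27 to 7.33) when the overlap had to be 50% of both peaks. Of the 454 left peaks of replicate 2, 268 (59.0%, 54.4 to 63.6%) overlapped a replicate 1 peak, against 311 of 496 (62.7%, 58.3 to 67.0%) on the rest and 57.3% over all chromosomes. That difference was −3.67 points (−9.85 to 2.53). It was −7.67 points (−13.9 to −1.30) when the overlap had to be 50% of both peaks, and −12.5 points (−20.5 to −4.25) when only the smaller q of each list were kept. The replicate 1 difference was 4.08 points (−3.88 to 11.8) under the latter setting. The left part held 1.27 times as many replicate 2 as replicate 1 peaks, and the rest 1.07 times as many.

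In the bands with the largest q, the differences had the same directions as over all peaks. Among replicate 1 peaks with a q above 0.001, 50.5% of the left ones and 39.4% of the others had a replicate 2 peak, and between 1e-05 and 0.001 the shares were 69.8% and 57.0%. Among replicate 2 peaks the shares with a replicate 1 peak were 30.5% and 39.2%, and 62.0% and 70.9%, in the same bands. In that order the 4 left minus rest differences were 11.0 points (−1.40 to 23.1), 12.7 (−0.40 to 24.8), −8.69 (−17.8 to 0.85) and −8.90 (−19.4 to 2.11). At a q of at most 1e-10 all 57 left peaks of replicate 1 and 43 of the 44 of replicate 2 were matched. On the rest all 82 and all 38 such peaks were matched.

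**Figure D4:**
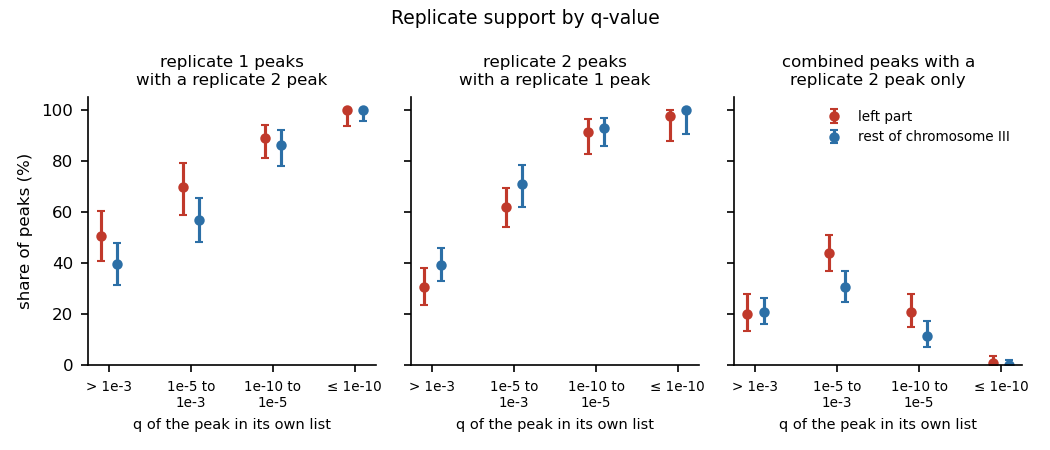
Share of peaks in percent with support in the replicate lists, by the q of the peak in its own list, for the left part (red) and the rest of chromosome III (blue); bars are exact 95% binomial intervals. In the 2 bands with the largest q the left part is higher among replicate 1 peaks and lower among replicate 2 peaks, and at a q of at most 1e-10 nearly all replicate peaks are matched.

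Wide peaks of replicate 1 were almost always matched on the left part. Of its 84 left peaks over 500 bp, 79 (94.0%) overlapped a replicate 2 peak, against 78 of 104 (75.0%) on the rest, a difference of 19.0 points (8.75 to 28.8). For replicate 2 the shares were 91.8% and 84.6%, with a difference of 7.19 points (−4.13 to 17.1). Narrow peaks under 200 bp were matched far less often in both lists. On the left part 43.2% of the 74 narrow peaks of replicate 1 and 30.5% of the 154 of replicate 2 had a partner. On the rest the shares were 28.6% of 28 and 26.3% of 95. Matching between the replicate lists was similar inside and outside clusters. In clusters 76.5% of left replicate 1 peaks were matched and outside them 73.8%, and for replicate 2 the shares were 60.8% and 58.0%. On the rest they were 64.9% and 65.9% for replicate 1, and 59.0% and 63.2% for replicate 2.

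Within the left part support varied from bin to bin and was lowest from 0.5 to 1.0 Mb. By bins of 500 kb the matched share of replicate 1 peaks was 84.2, 57.1, 80.0, 79.2, 79.1, 75.0, 60.0, 62.9 and 80.8%. The bin from 0.5 to 1.0 Mb rests on 14 replicate 1 peaks, and the others on 19 to 96. For replicate 2 the shares were 56.7, 39.1, 63.2, 68.9, 57.6, 46.7, 53.8, 55.0 and 68.8%. The lowest bin was thus the same in both lists. Matched peaks are largely the same overlapping pairs seen from either list, so these shares are not independent of each other. The fullest bin, from 1.5 to 2.0 Mb, had the highest share for replicate 2, just above the last bin, and the fourth highest for replicate 1.

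In the combined list, 267 of the 657 left peaks (40.6%) overlapped both replicates, against 300 of 834 (36.0%) on the rest and 32.7% over all chromosomes. The difference from the rest was 4.67 points (−0.29 to 9.63), and it turned to −0.72 when each list was cut to the 50% of peaks with the smallest q. Peaks matched by replicate 2 alone made up 22.8% of the left part and 17.5% of the rest, a difference of 5.33 points (1.24 to 9.47). Those matched by replicate 1 alone made up 11.9% and 17.7%, a difference of −5.87 points (−9.42 to −2.23). Peaks in neither replicate made up 24.7% and 28.8%. Among clustered combined peaks, 43.8% of the left ones and 33.9% of the others overlapped both replicates, a difference of 9.91 points (0.68 to 18.6). Outside clusters the shares were 37.6% and 36.5%, a difference of 1.17 points (−5.04 to 7.53). How the combined list was made is not given, and it may rest on reads of both replicates, so its overlap with them is no independent support.

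More left peaks were matched by replicate 2 alone in both bands of intermediate q. Among combined peaks with a q between 1e-05 and 0.001, 44.0% of the 200 left ones were matched by replicate 2 alone and 20.0% by replicate 1 alone. On the rest of the chromosome the same shares of 242 peaks were 30.6% and 34.7%. The left minus rest differences were 13.4 points (4.38 to 22.2) and −14.7 points (−22.6 to −6.36). Between 1e-10 and 1e-05, replicate 2 alone matched 20.8% of the left peaks and 11.6% of the others, a difference of 9.27 points (1.44 to 17.1). Replicate 1 alone matched 18.5% and 24.3% there, a difference of −5.83 points (−14.4 to 2.91). The left part also held 1.27 times as many replicate 2 as replicate 1 peaks, against 1.07 times on the rest. The shares matched by 1 replicate alone, here and over all q, therefore restate these list sizes in part. At a q of at most 1e-10, 156 of 158 left peaks were in both replicates, against 169 of 170 on the rest.

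The 4 kinds of combined peak differed in width and q. On the left part those in both replicates were at the median 463 bp wide, with a median −log10 q of 11.0. Those of replicate 1 alone had 250 bp and 4.66, and those of replicate 2 alone had 216 bp and 3.95. Those in neither had 160 bp and 2.76. On the rest the widths of these kinds were 420, 338, 295 and 212 bp, so the 3 less supported kinds were narrower on the left part while those in both replicates were wider.

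Among left peaks found in neither replicate list, the smallest combined q was 1.61e-07, for a 576 bp peak from 71292 to 71867. The next 4 lay at 1313826 to 1313853, 1535520 to 1535660, 1911635 to 1911805 and 2043382 to 2043504. Their −log10 q values were 5.58, 5.25, 5.21 and 5.11, and they were 28, 141, 171 and 123 bp wide. All 4 were thus narrower than the 274 bp median of left combined peaks, while their −log10 q was somewhat above the left median of 4.90.

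The strongest left peaks of 1 replicate alone were in the combined list. For replicate 1 they lay at 2804460 to 2804885, 3875452 to 3876107 and 1219636 to 1220223, with −log10 q of 8.29, 7.69 and 7.59. For replicate 2 they lay at 1419675 to 1420385, 1042533 to 1042963 and 1047803 to 1048262, with 10.4, 7.43 and 6.14. The last 2 belong to the cluster at 1040602 in which replicate 2 had 9 peaks and replicate 1 had 2. Of the left peaks missing from the other replicate, 85 of 91 in replicate 1 and 164 of 186 in replicate 2 were in the combined list. On the rest these numbers were 150 of 158 and 153 of 185.

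Where both replicates had a peak, the midpoints lay close together and the q-values were correlated. Over 263 left pairs, each made of peaks with their largest overlap in one another, −log10 q of the replicates had a Spearman's rho of 0.65 and a Pearson's r of 0.78. Over 303 pairs on the rest these were 0.71 and 0.90, and without the 2 pairs farthest from the replicate 1 median r was 0.75 on the left part and 0.79 on the rest. These are descriptions across sites of 2 lists. Replicate 1 had the larger value in 167 of the 263 left pairs, with a median excess of 0.67, and in 208 of the 303 others, with a median excess of 1.20. Midpoints of left pairs were a median of 32 bp apart, against 27 bp on the rest. The replicate 1 peak was the wider one in 177 left pairs, with medians of 388 and 316 bp.

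**Figure D5:**
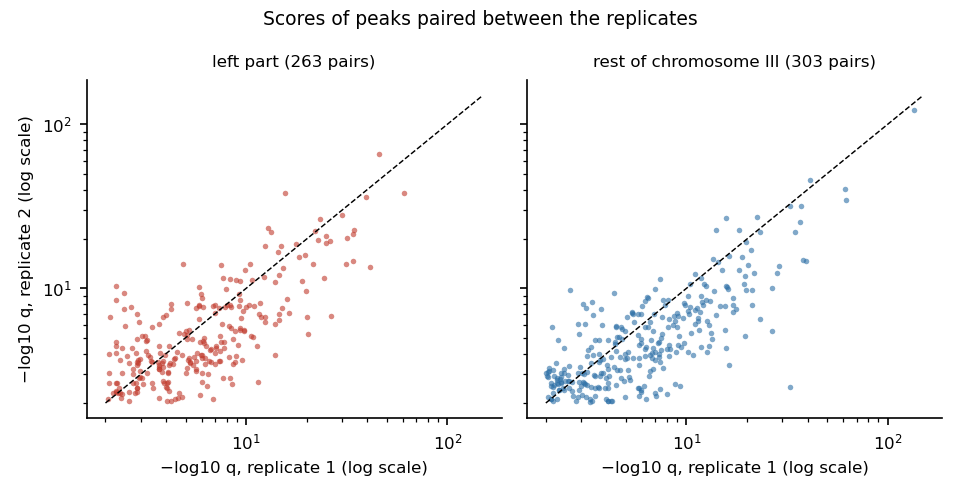
Each point is a pair of overlapping peaks, with −log10 q in replicate 1 and replicate 2 on log axes, for the left part (263 pairs) and the rest of chromosome III (303 pairs); the dashed line marks equal values. Most points lie below the line, 167 of the left pairs and 208 of the others.

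Counted in bases, the lists shared 89.4 kb on the left part. This was 63.4% of the length covered by replicate 1 there and 64.9% of that covered by replicate 2. On the rest they shared 115 kb, or 54.0% of replicate 1 and 64.1% of replicate 2. Splitting of peaks was rare. On the left part 8 combined peaks held 2 peaks of replicate 1 and 17 held 2 of replicate 2. On the rest 8 and 17 combined peaks held 2 or more.

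The window of 100 kb that spans the boundary held 14 combined peaks and the next one 8. The last 2 combined peaks inside it ran from 4578413 to 4578719 and from 4587131 to 4587495, with −log10 q of 7.44 and 7.51, and both were in both replicates. The first 2 past it ran from 4612359 to 4612970 and from 4626482 to 4626633, with 5.06 and 2.14. The first of these was matched by replicate 2 alone and the second by neither. At the other end, the first combined peak of the chromosome ran from 12675 to 12932, with a −log10 q of 5.29, and was matched by replicate 1 alone. The first window of 100 kb, with its 24 combined peaks, was fuller than any full window of the rest.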

How the data were processed

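The authors deposited 3 peak lists, for replicate 1, replicate 2 and both combined, for genome build WormBase WS190 per the file headers. The source column names PeakSeq. The aligner, the threshold, the control, any pooling and the version of PeakSeq are not given there or in the labels. The only score is the deposited q-value of each peak. All are under 0.01, so weaker regions are absent, and depth and control affect a q-value along with enrichment. Lists were tied to replicates by the sample titles' stem.

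Members, boundary and measures were chosen with earlier results of these data known. Peaks were taken on chromosome III by midpoint. Overlap was at least 1 bp, and gaps were counted between peak ends. Shares have exact binomial intervals and differences Newcombe intervals, all 95%. Named regions follow a fixed rule: the smallest q in both, neither or 1 replicate, the widest peaks, the largest clusters, the fullest windows, the longest gaps and the peaks beside the boundary. Bins, runs joined at 5 kb, stretches, q bands and the 200 bp and 50 bp limits were added after the values were seen. Sequence and gene annotation of build WS190 were not used here, so no sequence or gene is given. Python 3.11.15, pandas 2.3.3, numpy 2.4.6, scipy 1.17.1, statsmodels 0.14.6 and matplotlib 3.10.9 were used, and the routines were tested on simulated data. The labels number the replicates and do not state separate cultures.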

Additional observations from a re-analysis of the deposited data

How the results depend on the processing

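The left share of chromosome III peaks was 47.2% when each list was cut to the 50% of peaks with the smallest q, 40.04% with the boundary at 4 Mb, 41.1% without the 2 fullest windows, 40.8% by covered length, and 43.7 to 47.8% in the single replicate lists. The excess of close neighbours fell to 12.3 points at 500 bp and was 17.7 to 20.3 in the single lists, and that of clustered peaks to 17.9 points at a cluster gap of 1 kb and 19.4 to 24.3 points in the single lists. Neither excess changed direction under any alternative run. Replicate 1 support, left minus rest, was 0.55 points at 50% reciprocal overlap and 4.08 among the smaller q, and replicate 2 support was −7.67 and −12.5 points under the same settings. The excess of combined peaks in both replicates was −0.72 points among the smaller q, −0.27 at reciprocal overlap, and −1.21 to 9.99 when 1 replicate was asked for. The excess of peaks over 500 bp was −0.49 points with the boundary at 4 Mb, −4.91 to 0.95 in the single lists and −2.13 for peaks of at least 1 kb, while peaks under 200 bp were in excess by 11.6 points. The cause was not tested. Merging peaks within 200 bp changed nothing, because no gap is that short. Keeping peaks of at least 50 bp, added later with the 200 bp limit, reversed none of these results. No paired analysis was possible because each replicate is 1 list. The lists give no read counts, so depth limits what a missing peak means.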
